A study of Mus musculus with 8 samples.

Results

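Among 32 established target genes of the transcription factor p53, Zmat3, Eda2r and Trp53inp1 were higher and Ephx1 was lower in mouse hematopoietic stem cells labelled Huwe1 knockout than in wild type stem cells. Zmat3, which encodes an RNA-binding zinc finger protein, stood 4.5-fold higher. The other 28 targets, among them the feedback genes Mdm2, Ppm1d and Ccng1, did not pass the edgeR test in the comparison of both knockout lines with wild type, where DESeq2 also called Plk2, Plk3 and Fas and limma-voom Plk2, Plk3 and Apaf1. Only Zmat3 passed the edgeR test in each knockout line by itself. Eda2r, Trp53inp1 and Ephx1 no longer passed it with both lines averaged when any 1 wild type library was left out. The 32 genes were taken by name from a list of p53 targets that leaves out Cdkn1a (p21) and, apart from Pmaip1, the BCL2 family. The list was chosen with earlier results of these data known. Its counts beside the shares of all tested genes therefore describe the list and do not test for an excess. All 32 are among the 23358 genes of the count table, and all 32 were among the 14086 genes with enough reads to be tested.

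The libraries came from hematopoietic stem cells, the bone marrow cells that renew themselves and give rise to all blood lineages. Sorting by flow cytometry took the Lin-Sca+Kit+CD48-CD150+ fraction, whose RNA was extracted without culture. There were 3 libraries labelled Huwe1 knockout with Mx1-Cre, 2 labelled Huwe1 knockout with Vav-Cre and 3 labelled wild type. Mx1-Cre is driven by an interferon-inducible promoter and deletes after induction, whereas Vav-Cre is active in blood cells from development onward. The labels give no treatment and name no inducing agent, and they give neither age nor sex. They also state no Cre for wild type, so an effect of Cre or of its induction cannot be told apart from that of Huwe1 loss. Group names are those of the labels throughout.

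p53 is a stress-activated transcription factor that binds DNA as a tetramer and switches on genes for growth arrest, cell death, DNA repair and metabolism. Several of its targets, Mdm2 first among them, act back on p53 and limit it. In hematopoietic stem cells p53 is known to restrain cycling and to remove damaged cells. HUWE1 is a ubiquitin ligase whose known substrates include p53 and MYC family proteins, so the p53 targets are of interest in cells labelled Huwe1 knockout.

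The DNA that p53 reads consists of paired copies of a 10-base palindromic half-site. In RefSeq promoter windows of build GRCm38.p6, which run from 250 bases before to 50 bases after a gene's start, 9 of the 24 p53 targets with a window held at least 1 exact match to the consensus half-site (37.5%). Among all tested genes with a window the share was 8.17% of 10327, and among all genes with a window 9.55% of 27025. The half-site is its own reverse complement in consensus form, so 1 search covers both strands. The 9 genes were Mdm2, Ppm1d, Ccng1, Gtse1, Gadd45a, Aen, Ei24, Polk and Sesn1. None of these 9 was called by the main edgeR fit in any of the 4 comparisons described below. For Mx1-Cre, Gtse1 was called by DESeq2, by limma-voom and by edgeR without a count filter or with only the compared groups. DESeq2 also called it between the lines. The windows of Eda2r and Ephx1 held no exact match, and Rrm2b, Xpc, Ddb2, Zmat3, Tnfrsf10b, Perp, Pmaip1 and Trp53inp1 were not searched. The matches of 4 feedback genes are shown because these genes form the loop around p53 itself, each with 10 flanking bases on either side, read 5′ to 3′ on the strand of the gene, and with the half-site in capitals. Mdm2 lies at chr10:117710925-117710954 on the minus strand, Ppm1d at chr11:85311112-85311141 on the plus strand, Ccng1 at chr11:40755452-40755481 on the minus strand and Gtse1 at chr15:85859945-85859974 on the plus strand. Those of Mdm2, Ppm1d and Ccng1 lie before the start site, and that of Gtse1 lies just after it.
Mdm2: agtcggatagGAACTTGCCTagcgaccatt
Ppm1d: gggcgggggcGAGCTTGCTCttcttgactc
Ccng1: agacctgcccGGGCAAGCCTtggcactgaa
Gtse1: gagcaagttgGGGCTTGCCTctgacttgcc

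Total counts were 28689765 to 33202926 per library. All 10 stem cell markers were detected in each group, and Kit averaged 1606.8 CPM (counts per 1000000 reads, with library sizes scaled by TMM) in Mx1-Cre, 1699.7 in Vav-Cre and 1481.0 in wild type libraries. Cd48, whose protein the sort selects against, averaged 21.3 CPM in Mx1-Cre, 15.3 in Vav-Cre and 15.2 in wild type libraries. The biological coefficient of variation was 30.4% among Mx1-Cre, 35.8% among Vav-Cre and 21.1% among wild type libraries. Huwe1 itself averaged 418.4 ± 23.4 CPM in Mx1-Cre libraries, 467.5 ± 32.2 in Vav-Cre libraries and 421.5 ± 20.5 in wild type libraries (SD, n = 3, 2 and 3). The labels do not say which part of the gene was deleted. A count over the whole gene need not fall where a deletion leaves most of the transcript, so this value does not check the knockout labels. How complete the deletion was in these cells was not tested. The labels do not say that libraries of a group came from separate mice, so every p-value reflects the variation among these libraries alone.

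Genes were tested with edgeR's quasi-likelihood test in 1 model over the 8 libraries, and a gene was called when its p-value, adjusted over all 14086 tested genes by the Benjamini-Hochberg method, was under 0.05. With both knockout lines averaged against wild type, 3 p53 targets were called higher (Zmat3, Eda2r and Trp53inp1), where 0.547% of all tested genes were called higher. In the same comparison 1 target was called lower (Ephx1), where 2.10% of all tested genes were. For Mx1-Cre against wild type, 2 targets were called higher (Zmat3 and Eda2r), against a background of 0.390%, and 1 lower (Ephx1), against a background of 2.10%. For Vav-Cre against wild type, 1 target was called higher (Zmat3), against 0.192% of all tested genes, and 0 were called lower, against 0.319%. DESeq2 and limma-voom also called 0 lower in that comparison, and 8 targets reached an unadjusted p under 0.05 in either direction. Each line was set against the same 3 wild type libraries, so the comparisons are not independent of each other.

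At an unadjusted p under 0.05 the counts were 8 of 32 targets with both lines averaged (16.5% of all tested genes), 12 for Mx1-Cre (16.6%) and 8 for Vav-Cre (13.4%). The 8 genes with both lines averaged were Zmat3, Eda2r, Trp53inp1, Apaf1, Plk3, Plk2, Fas and Ephx1. All 5 knockout libraries lay above all 3 wild type libraries for 6 targets, Zmat3, Eda2r, Trp53inp1, Apaf1, Plk3 and Mdm2, where 4.41% of all tested genes did so. All 5 lay below for 3 targets, Plk2, Fas and Ephx1, where 7.28% of all tested genes did so. With both lines averaged the log2 fold change was positive for 19 and negative for 13 targets, and its median was 0.14 over the targets and 0.00 over all tested genes. For Mx1-Cre against wild type 18 were positive and 14 negative (median 0.20, against 0.01 over all tested genes), and for Vav-Cre 20 were positive and 12 negative (median 0.12, against -0.01). Without Vav-Cre 2 the Vav-Cre median was -0.02, without wild type 1 the median with both lines averaged was 0.05, and without Mx1-Cre 2 the Mx1-Cre median was 0.06.

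**Figure D1:**
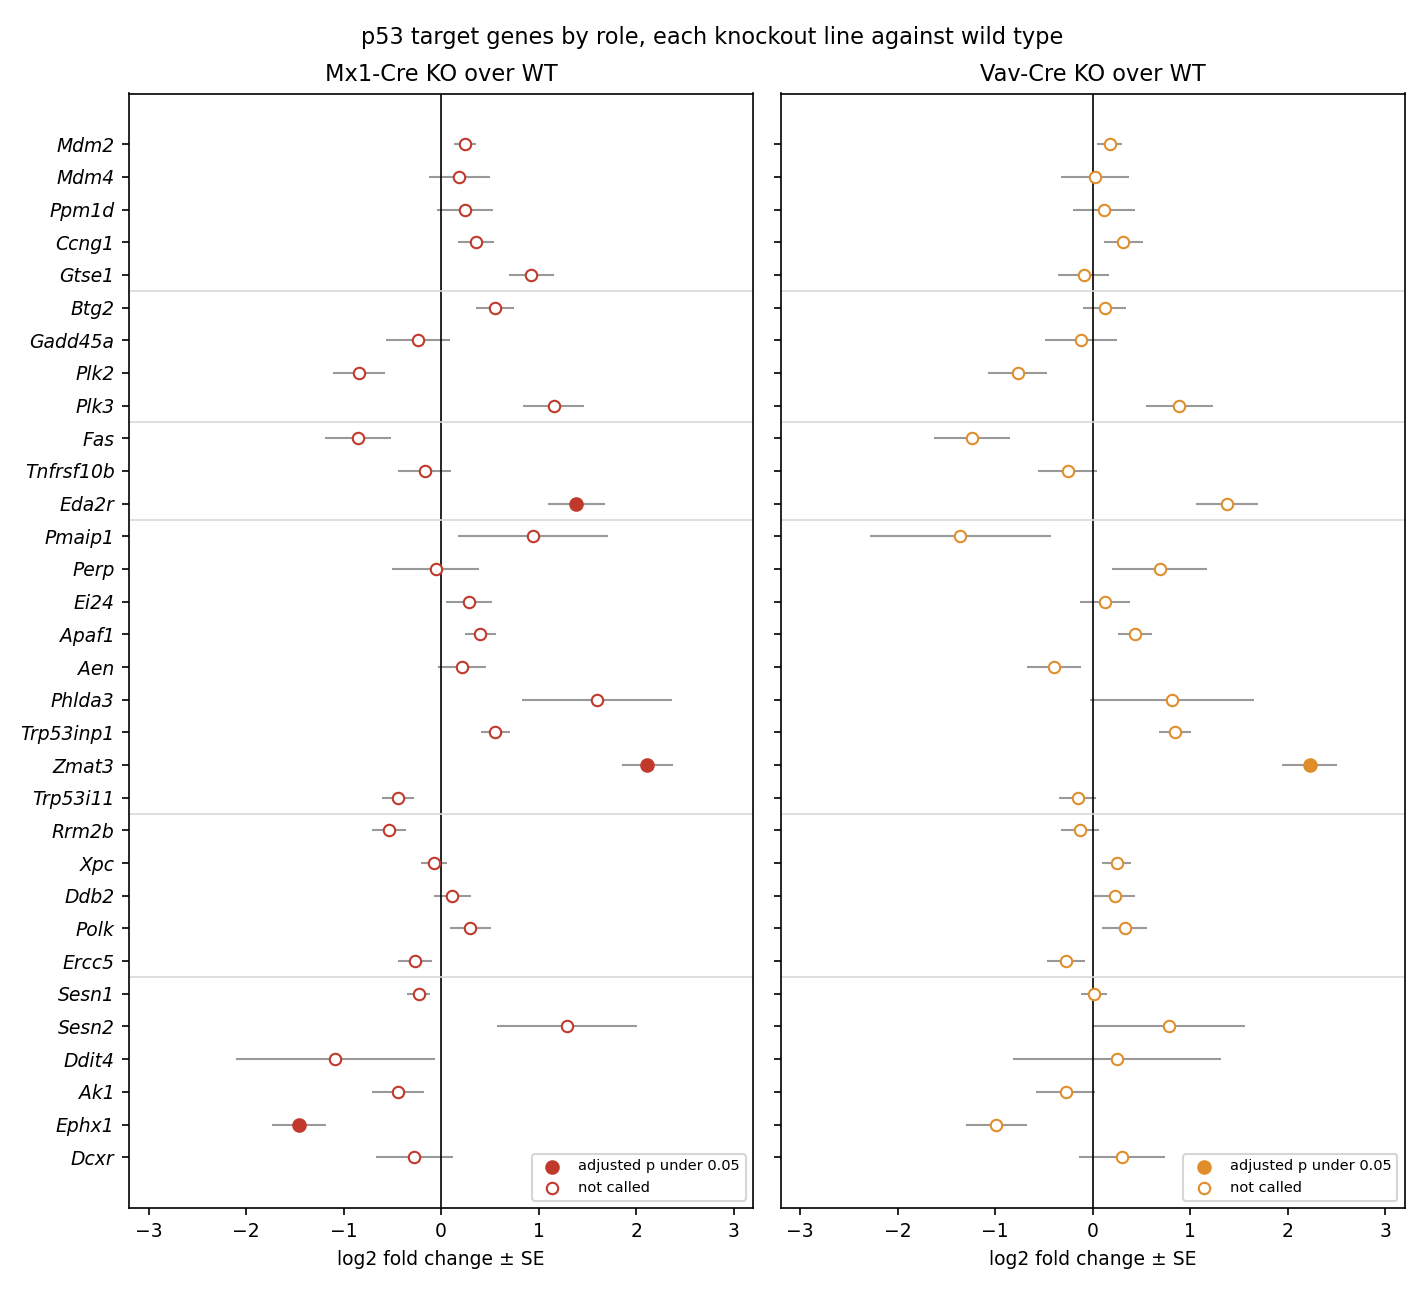
Log2 fold change of each of the 32 p53 target genes against wild type, by role, for Mx1-Cre (left) and Vav-Cre (right). Points are edgeR estimates with their SE, and filled points were called. Zmat3 lies farthest to the right in both panels, at 2.12 in Mx1-Cre libraries and 2.23 in Vav-Cre libraries.

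The feedback and partner genes of p53 had small differences. MDM2 is the ubiquitin ligase that targets p53 for destruction. Its mRNA stood at 114.9, 106.9 and 119.8 CPM in Mx1-Cre libraries 1 to 3 and at 107.2 and 110.0 in Vav-Cre libraries 1 and 2, against 94.2, 92.5 and 102.2 in wild type libraries 1 to 3. All 5 knockout values lay above the 3 wild type values, and the log2 difference was 0.21 ± 0.11 with both lines averaged (SE, adjusted p = 0.365, edgeR). Ccng1, which encodes the cyclin G1 that recruits a phosphatase to MDM2, averaged 156.9 ± 28.5 CPM in Mx1-Cre libraries and 152.8 ± 33.8 in Vav-Cre libraries, and 122.8 ± 20.8 in wild type libraries. Ppm1d, a phosphatase that switches off p53 signalling, averaged 30.4 ± 12.4 CPM in Mx1-Cre, 27.9 ± 0.36 in Vav-Cre and 25.7 ± 5.42 in wild type libraries. Mdm4, which encodes the MDM2 partner that blocks p53 activity, averaged 46.1 ± 22.5 CPM in Mx1-Cre, 41.1 ± 1.21 in Vav-Cre and 40.5 ± 11.4 in wild type libraries. All 5 genes of this role had a positive log2 difference with both lines averaged, between 0.10 and 0.42, and none passed the test.

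Gtse1 was the feedback gene whose level differed most between the knockout lines. It encodes a microtubule-associated protein of the G2 and S phases that shuttles p53 out of the nucleus. Gtse1 stood at 68.8, 65.0 and 84.4 CPM in Mx1-Cre libraries 1 to 3 and at 47.7 and 24.1 in Vav-Cre libraries 1 and 2, against 43.0, 35.4 and 36.3 in wild type libraries 1 to 3. The Mx1-Cre libraries lay above all others, while 1 Vav-Cre library lay above and 1 below the whole wild type range. The log2 difference was 0.93 ± 0.24 for Mx1-Cre against wild type (adjusted p = 0.0706, edgeR) and -0.09 ± 0.26 for Vav-Cre against wild type (adjusted p = 0.929). The Vav-Cre difference was -0.67 without Vav-Cre 1 and 0.32 without Vav-Cre 2. DESeq2, limma-voom, the fit without a count filter, the fit of only these groups and the fits without Vav-Cre 1 or Vav-Cre 2 called Gtse1 higher in Mx1-Cre libraries.

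Tested directly, Vav-Cre minus Mx1-Cre, Gtse1 differed by -1.02 ± 0.27 (log2, SE, unadjusted p = 0.0033, adjusted p = 0.173, edgeR). DESeq2 and the fit without Vav-Cre 1 called that difference, with adjusted p-values down to 0.0124. Between the lines 0 targets were called higher and 0 lower by edgeR, where 0.114% and 0.0568% of all tested genes were called. Limma-voom called 0 as well, DESeq2 called 0 higher and 1 lower, and 2 targets, Gtse1 and Pmaip1, reached an unadjusted p under 0.05 (13.3% of all tested genes). A list of 24 G2/M and mitosis genes had a similar order of levels, with summed CPM of 5235.0, 4477.5 and 5430.9 in Mx1-Cre, 4487.7 and 2153.3 in Vav-Cre, and 3387.3, 3363.1 and 3474.6 in wild type libraries. All 24 had a positive log2 difference for Mx1-Cre against wild type (median 0.51), 5 of 24 did for Vav-Cre (median -0.11), and 0 of 24 did for Vav-Cre minus Mx1-Cre (median -0.63). By edgeR 0 of the 24 were called in any comparison. At an unadjusted p under 0.05 the counts were 8 for Mx1-Cre (16.6% of all tested genes), 0 for Vav-Cre (13.4%) and 12 between the lines (13.3%). The part of G2/M genes in the Gtse1 values was not tested.

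**Figure D2:**
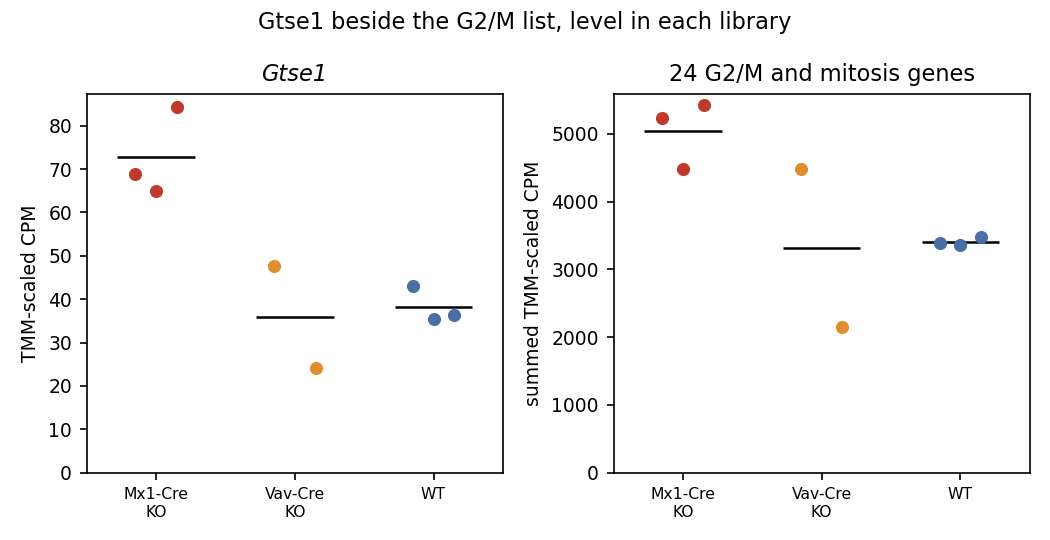
Left, Gtse1 level in TMM-scaled CPM in each library. Right, summed TMM-scaled CPM of the 24 G2/M and mitosis genes, with groups on the x axis and a bar at each group mean. In both panels Vav-Cre 2 is the lowest library, at 24.1 CPM for Gtse1 and 2153.3 for the sum, and the Mx1-Cre libraries include the highest.

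The growth arrest genes and stress kinases included a pair of related kinases with opposite differences. Plk3, a polo-like kinase of the stress response, stood at 5.84, 5.26 and 5.11 CPM in Mx1-Cre libraries 1 to 3 and at 3.54 and 5.45 in Vav-Cre libraries 1 and 2, against 2.77, 2.36 and 2.15 in wild type libraries 1 to 3. Plk2, its paralog with a role in centriole duplication and the response to DNA damage, stood at 8.52, 7.44 and 10.7 CPM in Mx1-Cre libraries and at 6.69 and 12.0 in Vav-Cre libraries, against 15.8, 14.2 and 17.8 in wild type libraries. For neither gene did the knockout libraries overlap wild type, and the 2 kinases lay on opposite sides of it. With both lines averaged the log2 difference was 1.02 ± 0.29 for Plk3 (adjusted p = 0.0991, edgeR) and -0.81 ± 0.23 for Plk2 (adjusted p = 0.108). Neither passed the edgeR test, while DESeq2 and limma-voom called both, with both lines averaged and for Mx1-Cre. Without Vav-Cre 2, edgeR called Plk2 with both lines averaged (adjusted p = 0.0486).

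Plk3 overlaps Tctex1d4 on the opposite strand, and the libraries hold no strand information, so reads of the 2 genes in the overlap cannot be told apart. Tctex1d4 itself was at 0.76 to 0.90 CPM in Mx1-Cre, 1.58 to 3.50 in Vav-Cre and 0.43 to 0.65 in wild type libraries. Btg2, an anti-proliferative transcription cofactor, averaged 60.9 ± 15.9 CPM in Mx1-Cre, 45.2 ± 8.88 in Vav-Cre and 41.5 ± 2.37 in wild type libraries, with all 3 Mx1-Cre libraries above wild type (log2 0.55 ± 0.20, adjusted p = 0.187, edgeR). Gadd45a, a stress sensor that binds cell cycle and repair proteins, averaged 5.07 ± 0.85 CPM in Mx1-Cre, 5.50 ± 0.85 in Vav-Cre and 5.98 ± 2.09 in wild type libraries, with overlapping ranges, and it overlaps E230016M11Rik on the opposite strand.

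The 3 receptor genes of the list did not share a direction. Eda2r encodes a receptor of the TNF receptor family for the ectodysplasin A2 ligand. It stood at 7.53, 10.7 and 12.1 CPM in Mx1-Cre libraries 1 to 3 and at 7.71 and 12.4 in Vav-Cre libraries 1 and 2, against 3.24, 3.97 and 4.39 in wild type libraries 1 to 3. Every knockout library lay above every wild type library. Eda2r rose 2.60-fold with both lines averaged (log2 1.38 ± 0.28, adjusted p = 0.0291, edgeR) and by 1.39 ± 0.30 in Mx1-Cre libraries (adjusted p = 0.0395). In Vav-Cre libraries the log2 difference was 1.38 ± 0.32 with an adjusted p of 0.0948, and the difference between the lines was -0.01 ± 0.32 (adjusted p = 0.996). Leaving out any 1 wild type library or Vav-Cre 2 ended the call with both lines averaged, with adjusted p-values of 0.0234 to 0.142 over the 8 libraries left out. For Mx1-Cre, leaving out any 1 wild type or Mx1-Cre library ended it (0.0242 to 0.153).

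Fas, the receptor that triggers caspase activation when bound by its ligand, had the reverse pattern. It stood at 3.80, 4.57 and 5.0 CPM in Mx1-Cre libraries and at 4.45 and 2.36 in Vav-Cre libraries, against 10.4, 7.88 and 5.79 in wild type libraries. All knockout values lay below all wild type values, and the gap to wild type 3 was the smallest. The log2 difference with both lines averaged was -1.04 ± 0.30 (adjusted p = 0.104, edgeR), and DESeq2 called it. Tnfrsf10b, the mouse receptor for the death ligand TRAIL, averaged 8.81 ± 1.25 CPM in Mx1-Cre, 8.29 ± 0.38 in Vav-Cre and 9.91 ± 2.91 in wild type libraries, within the spread of wild type.

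**Figure D3:**
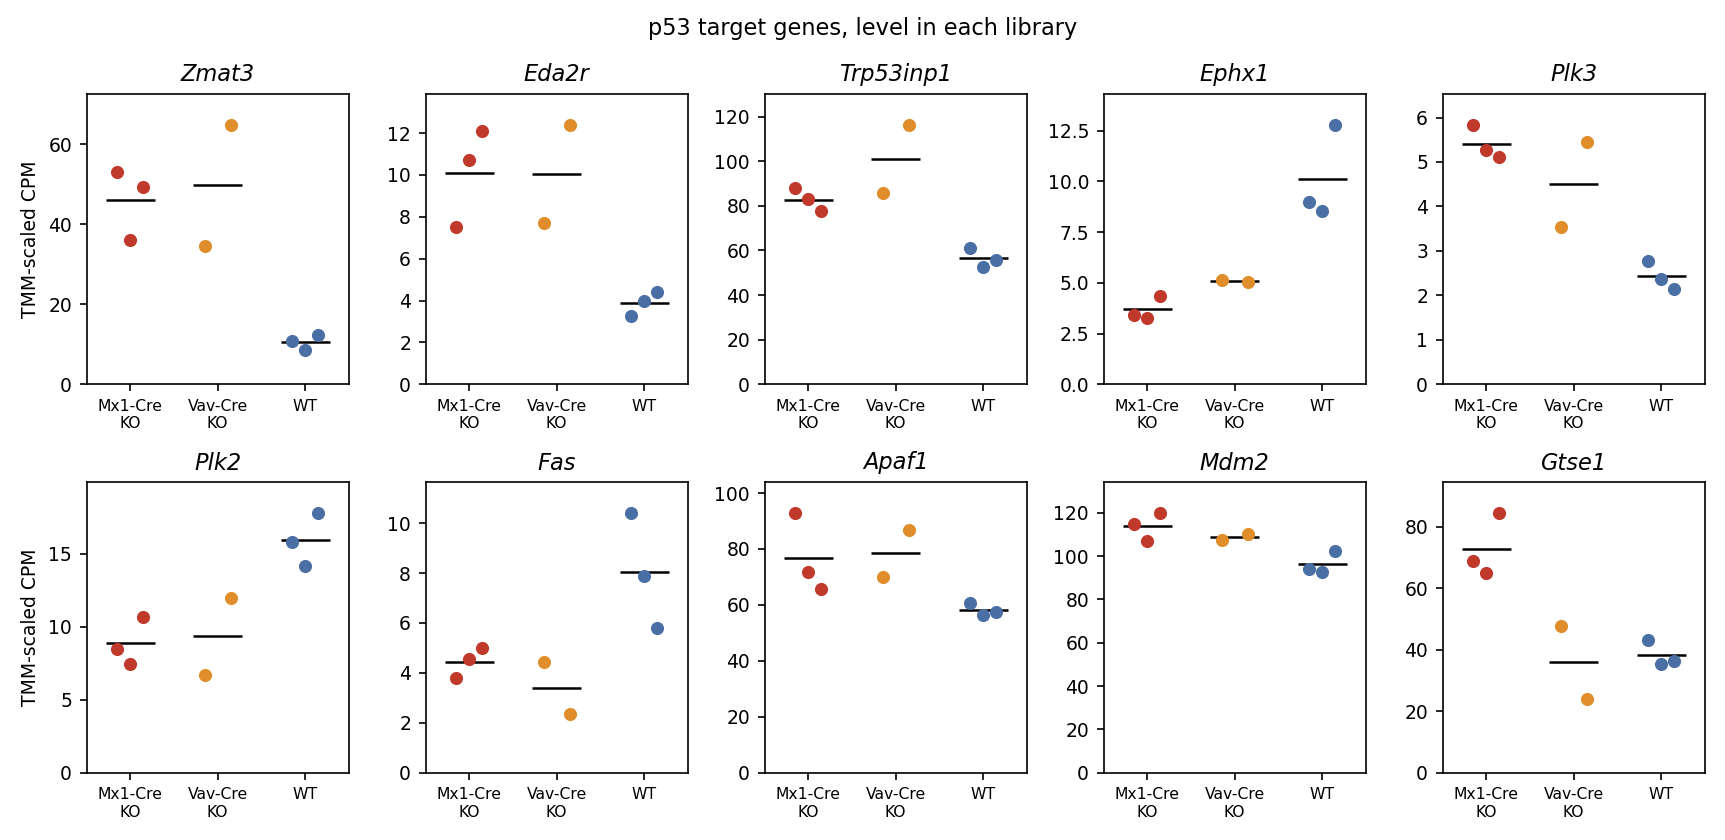
TMM-scaled CPM in each library of the 10 p53 target genes that were called, did not overlap wild type or reached an unadjusted p under 0.01. Each panel is 1 gene with groups on the x axis and a bar at each group mean. Zmat3 lies between 34.6 and 64.9 CPM in the knockout libraries and between 8.63 and 12.4 in wild type, while Ephx1, Fas and Plk2 are highest in wild type.

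Among the 9 cell death effectors, Zmat3 had the strongest difference of all 32 targets. Its protein binds mRNAs and regulates their splicing and stability. Zmat3 stood at 53, 36.1 and 49.3 CPM in Mx1-Cre libraries 1 to 3 and at 34.6 and 64.9 in Vav-Cre libraries 1 and 2, against 10.9, 8.63 and 12.4 in wild type libraries 1 to 3. The lowest knockout library was above the highest wild type library by a wide margin. Zmat3 rose by 2.12 ± 0.27 in Mx1-Cre libraries (log2, SE, adjusted p = 0.00506, edgeR) and by 2.23 ± 0.28 in Vav-Cre libraries (adjusted p = 0.0154), and the difference between the lines was 0.11 ± 0.28 (adjusted p = 0.915). By p-value it was number 3 of the 7049 genes with a positive log2 difference when both lines were averaged, where it rose by 2.17 ± 0.25 (adjusted p = 0.00368). It was called in all 16 alternatives with both lines averaged and in all 17 for Mx1-Cre. For Vav-Cre the call was lost without wild type 2, without wild type 3 or without Vav-Cre 2, with adjusted p-values up to 0.0964.

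Trp53inp1 encodes a nuclear protein induced by stress that promotes p53 phosphorylation and autophagy. It stood at 88.1, 82.9 and 77.5 CPM in Mx1-Cre libraries and at 85.9 and 116.4 in Vav-Cre libraries, against 61.2, 52.5 and 55.7 in wild type libraries. All knockout libraries were above wild type, and Vav-Cre 2 was the highest. Trp53inp1 rose 1.62-fold with both lines averaged (log2 0.70 ± 0.14, adjusted p = 0.0272, edgeR). Within 1 line the log2 difference was 0.55 ± 0.15 for Mx1-Cre (adjusted p = 0.0853) and 0.84 ± 0.16 for Vav-Cre (adjusted p = 0.0552). The call with both lines averaged was lost without any 1 wild type library, without Mx1-Cre 1 or without Vav-Cre 2 (adjusted p 0.0176 to 0.159 over the libraries left out). DESeq2 and limma-voom called Trp53inp1 in each line as well.

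Apaf1, the scaffold of the apoptosome that activates caspase 9, stood at 92.8, 71.8 and 65.6 CPM in Mx1-Cre libraries and at 70.0 and 86.8 in Vav-Cre libraries, against 60.6, 56.4 and 57.3 in wild type libraries. The groups did not overlap, but the log2 difference of 0.42 ± 0.15 with both lines averaged did not pass the test (adjusted p = 0.184, edgeR), while limma-voom called it. Phlda3, an inhibitor of AKT, ranged from 0.54 to 8.34 CPM within the Mx1-Cre group alone, was at 1.82 and 3.10 in Vav-Cre libraries and at 0.86 to 2.15 in wild type libraries. Its log2 difference for Mx1-Cre was 1.60 with an SE of 0.77, so a large estimate came with a wide error. Pmaip1, which encodes the BH3-only protein NOXA, had 30, 35 and 74 counts in Mx1-Cre libraries and 16 and 3 in Vav-Cre libraries, against 21, 43 and 13 in wild type libraries. Between the lines its log2 difference was -2.30 ± 0.95 (adjusted p = 0.339), from 3 to 74 counts a library.

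The other 4 death effectors were not called in any comparison. Perp, a membrane protein of desmosomes and apoptosis, averaged 2.80 ± 1.23 CPM in Mx1-Cre, 4.68 ± 0.61 in Vav-Cre and 2.91 ± 1.14 in wild type libraries. Ei24, an endoplasmic reticulum protein of autophagy, averaged 21.9 ± 3.26 CPM in Mx1-Cre, 19.7 ± 4.27 in Vav-Cre and 18.0 ± 4.35 in wild type libraries. Aen, an exonuclease that acts in apoptosis, averaged 17.6 ± 3.95 CPM in Mx1-Cre, 11.6 ± 1.88 in Vav-Cre and 15.2 ± 3.40 in wild type libraries. Trp53i11, a p53-induced gene whose function is less well defined, averaged 38.5 ± 0.88 CPM in Mx1-Cre, 47.1 ± 1.00 in Vav-Cre and 52.4 ± 10.9 in wild type libraries. All 3 Mx1-Cre libraries lay below wild type for Trp53i11 (log2 -0.44 ± 0.17, adjusted p = 0.21, edgeR), and both Vav-Cre libraries lay above wild type for Perp (0.69 ± 0.49, adjusted p = 0.604).

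None of the 5 DNA repair and nucleotide supply genes passed the test. Xpc and Ddb2 encode damage recognition proteins of nucleotide excision repair. Xpc averaged 71.3 ± 7.26 CPM in Mx1-Cre, 88.9 ± 10.1 in Vav-Cre and 75.0 ± 3.03 in wild type libraries. Ddb2 averaged 22.6 ± 1.46 CPM in Mx1-Cre, 24.5 ± 3.07 in Vav-Cre and 20.9 ± 3.84 in wild type libraries, and it overlaps Acp2 on the opposite strand. Ercc5, the endonuclease that makes the incision on the 3′ side of the damage, averaged 32.6 ± 5.84 CPM in Mx1-Cre, 32.5 ± 0.51 in Vav-Cre and 39.2 ± 4.79 in wild type libraries. Polk, a polymerase that copies past DNA lesions, averaged 64.2 ± 19.1 CPM in Mx1-Cre, 65.5 ± 3.95 in Vav-Cre and 52.2 ± 8.56 in wild type libraries. Rrm2b, the p53-induced subunit of ribonucleotide reductase, averaged 19.0 ± 2.66 CPM in Mx1-Cre, 25.1 ± 1.08 in Vav-Cre and 27.5 ± 2.23 in wild type libraries. Its log2 difference in Mx1-Cre libraries was -0.53 ± 0.17 (unadjusted p = 0.0116, adjusted p = 0.151, edgeR).

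In the metabolism and growth signalling group, 4 of 6 targets had a negative log2 difference with both lines averaged, and edgeR called Ephx1 alone. It encodes the microsomal epoxide hydrolase, which detoxifies reactive epoxides. Ephx1 stood at 3.43, 3.26 and 4.37 CPM in Mx1-Cre libraries and at 5.15 and 5.05 in Vav-Cre libraries, against 8.98, 8.53 and 12.8 in wild type libraries. The knockout libraries were all below wild type, and the Vav-Cre libraries were the nearer to it. Ephx1 fell by 1.22 on the log2 scale with both lines averaged (SE 0.24, adjusted p = 0.0284, edgeR) and by 1.46 in Mx1-Cre libraries (SE 0.28, adjusted p = 0.0261). In Vav-Cre libraries the log2 difference was -0.99 ± 0.31 (adjusted p = 0.203), and the difference between the lines was 0.47 ± 0.30 (adjusted p = 0.554). The call with both lines averaged was lost when any 1 wild type library, Mx1-Cre 1, Vav-Cre 1 or Vav-Cre 2 was left out (adjusted p 0.03 to 0.177). For Mx1-Cre it was lost without any 1 wild type library, Mx1-Cre 1 or Mx1-Cre 2 (0.0229 to 0.136).

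The sestrins and Ddit4, which restrain the growth kinase complex mTORC1, had no common direction. Sesn1 averaged 151.1 ± 3.83 CPM in Mx1-Cre, 178.9 ± 27.1 in Vav-Cre and 177.5 ± 3.53 in wild type libraries. Sesn2 ranged from 0.93 to 4.76 CPM in Mx1-Cre libraries and was at 0.60 and 3.07 in Vav-Cre libraries, against 0.79 to 1.35 in wild type libraries. Ddit4 had 17 counts at most in any library. Ak1, an adenylate kinase, averaged 26.0 ± 9.0 CPM in Mx1-Cre, 29.2 ± 5.77 in Vav-Cre and 35.4 ± 8.20 in wild type libraries. Dcxr, a reductase of dicarbonyls and xylulose, averaged 5.86 ± 2.88 CPM in Mx1-Cre, 8.73 ± 3.83 in Vav-Cre and 7.10 ± 1.63 in wild type libraries. Neither passed the test.

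**Figure D4:**
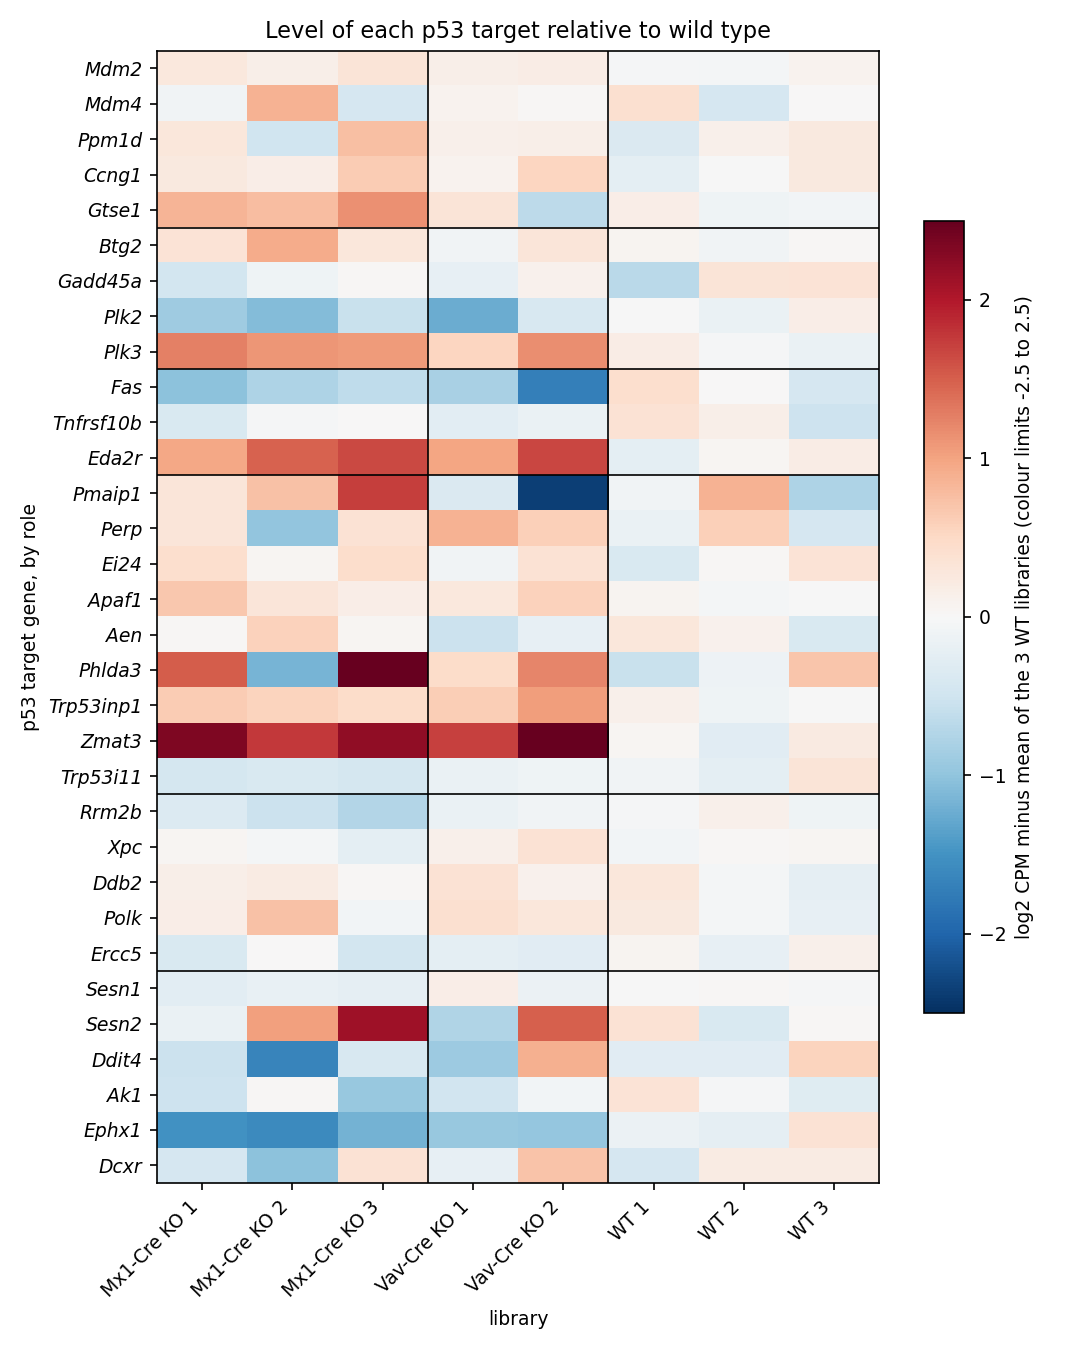
Level of each of the 32 p53 target genes in each of the 8 libraries, as log2 CPM minus the wild type mean, by role, with the difference as colour. Zmat3 and Eda2r are raised and Ephx1 lowered in every knockout library, while Gtse1 is high in the 3 Mx1-Cre libraries and lowest in Vav-Cre 2.

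The lines can also be set apart by library. For Mx1-Cre, 8 targets had all 3 libraries above wild type, where 10.9% of all tested genes did, and 7 had all 3 below, where 14.8% did. Those below included Sesn1, Rrm2b, Trp53i11 and Ddit4 besides Plk2, Fas and Ephx1. For Vav-Cre, 9 targets had both libraries above wild type, where 15.6% of all tested genes did, and 4 had both below, where 17.1% did. Perp, Xpc and Polk were among the 9, and Ercc5 among the 4. Summed over the 32 targets the level was 1197.5, 1233.6 and 1214.8 CPM in Mx1-Cre libraries and 1167.8 and 1288.4 in Vav-Cre libraries, against 1084.2, 1036.7 and 1099.8 in wild type libraries. All 5 knockout sums lay above the wild type sums, and the most abundant targets carry most of each sum. The sums include Zmat3, Eda2r, Trp53inp1, Apaf1, Plk3 and Mdm2, for which all 5 knockout libraries already lay above wild type. The order of the sums is therefore not a separate result.

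Trp53 mRNA, which encodes p53, averaged 594.4 ± 30.4 CPM in Mx1-Cre libraries and 525.1 ± 78.0 in Vav-Cre libraries, and 599.3 ± 42.0 in wild type libraries (log2 -0.10 ± 0.11 with both lines averaged, adjusted p = 0.738, edgeR). Of 30 p53 family members and upstream regulators 27 were tested, and 0 were called in any comparison by edgeR, with 4 of 27 at an unadjusted p under 0.05 when both lines were averaged, where 16.5% of all tested genes were. Trp63 and Trp73 had no count in any library. Of 35 further p53 targets 34 were tested. With both lines averaged 1 of them rose, Cpt1c, and 3 fell, Ndn, Gfi1 and Notch1. Cpt1c, a carnitine palmitoyltransferase family member, averaged 25.0 ± 3.59 CPM in Mx1-Cre libraries and 27.2 ± 0.77 in Vav-Cre libraries, and 6.09 ± 1.43 in wild type libraries (log2 2.10 ± 0.21, adjusted p = 0.00226). Ndn, a growth suppressor linked to stem cell quiescence, averaged 5.36 ± 1.38 CPM in Mx1-Cre, 10.3 ± 2.59 in Vav-Cre and 27.0 ± 5.02 in wild type libraries (log2 -1.86 ± 0.23, adjusted p = 0.00491). Gfi1 and Notch1 had log2 differences of -0.95 ± 0.20 and -0.61 ± 0.14 (adjusted p = 0.0354 and 0.0464). Gfi1 and Notch1 each lost the call without any 1 wild type library and in other fits with a library left out (adjusted p up to 0.208 and 0.218), while Cpt1c and Ndn kept it in all 8 such fits. Of all tested genes 0.547% were called higher and 2.10% lower in that comparison. For Mx1-Cre alone 2 of the 34 rose, Cpt1c and Cdkn1a, and Ndn, Gfi1 and Notch1 fell (0.390% and 2.10% of all tested genes). For Vav-Cre alone 1 rose, Cpt1c (0.192% of all tested genes), and 0 were called lower by edgeR (0.319%), with 11 of 34 at an unadjusted p under 0.05 (13.4% of all tested genes). The Vav-Cre call of Cpt1c was lost without wild type 2 (adjusted p = 0.0692).

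Cdkn1a, the cyclin-dependent kinase inhibitor p21 and a textbook p53 target, stood at 9.57, 6.35 and 21.5 CPM in Mx1-Cre libraries and at 6.55 and 7.5 in Vav-Cre libraries, against 3.17, 1.84 and 3.39 in wild type libraries. It rose by 2.15 ± 0.45 in Mx1-Cre libraries (log2, adjusted p = 0.0352, edgeR), and with both lines averaged the difference was 1.74 ± 0.41 (adjusted p = 0.0554). Its Vav-Cre difference was 1.33 ± 0.48 (adjusted p = 0.256). The Mx1-Cre call was lost without any 1 wild type library, without Mx1-Cre 1 or without Mx1-Cre 3, the library with the highest level (adjusted p 0.0184 to 0.159 over the libraries left out).

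Markers of other cells differed between the groups too. In bulk RNA, fewer cells of a type and less RNA per cell cannot be told apart. The 8 granulocyte progenitor markers summed to 167.4 to 222.0 CPM in Mx1-Cre libraries and 159.5 to 365.4 in Vav-Cre libraries, and to 417.0 to 657.6 in wild type libraries, with Mpo, Elane, Gfi1 and Clec12a called lower when both lines were averaged. Gfi1 is also on the list of further p53 targets. The 8 megakaryocyte markers summed to 720.6 to 947.6 CPM in Mx1-Cre, 538.3 to 925.0 in Vav-Cre and 1214.8 to 1603.3 in wild type libraries, with Mmrn1 and Thbs1 called lower, and Vwf lower in Mx1-Cre alone. The 16 neutrophil and monocyte markers summed to 389.5 to 889.0 CPM in Mx1-Cre, 337.9 to 585.6 in Vav-Cre and 714.7 to 1579.4 in wild type libraries, with Csf3r and Fcgr3 called lower. The 12 mast cell and basophil markers summed to 36.5 to 54.9 CPM in Mx1-Cre libraries, 21.6 and 248.0 in Vav-Cre 1 and 2, and 25.9 to 30.8 in wild type libraries, with Fcer1a and Cpa3 called higher. Fcer1a alone gave 208.5 of the 248.0 CPM in Vav-Cre 2, and 5 of the 8 tested genes of this list had a negative log2 difference with both lines averaged (median -0.46). The 9 stroma and endothelium markers summed to 62.4 to 96.1 CPM in Mx1-Cre, 108.8 to 128.4 in Vav-Cre and 134.6 to 177.5 in wild type libraries, with Bgn called lower. The 9 erythroid markers, with Hba-a1 and Hbb-b1 at 0 in all libraries, summed to 242.3 to 383.6 CPM in Mx1-Cre, 78.3 to 107.5 in Vav-Cre and 176.0 to 267.9 in wild type libraries. Rhd was called lower with both lines averaged, but the 2 lines differed in direction over the list. Of the 7 erythroid genes tested, 6 had a positive log2 difference for Mx1-Cre (median 0.38) and 0 for Vav-Cre (median -2.88). The 7 B cell markers summed to 54.5 to 69.1 CPM in Mx1-Cre, 35.8 to 72.9 in Vav-Cre and 64.9 to 85.3 in wild type libraries. Over the 6 tested, the median log2 difference was 0.84 for Mx1-Cre and -1.24 for Vav-Cre. The 9 T and NK cell markers summed to 113.6 to 143.0 CPM in Mx1-Cre, 83.5 to 125.0 in Vav-Cre and 133.0 to 190.8 in wild type libraries. By edgeR 0 genes of either list were called. The part of these cells in the values of Ephx1, Fas and Plk2, which were likewise highest in wild type, and of Zmat3, Eda2r and Trp53inp1 was not tested.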

How the data were processed

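Bulk RNA-seq was available from 8 libraries of sorted mouse hematopoietic stem cells, from cDNA of the SMARTer Ultra Low Input kit, with no strand information, per the labels' protocols. The tools were TopHat, SAMtools, HTSeq and edgeR, on build mm9, per the submitters' processing notes, and the annotation is not given in the sources used here. The authors deposited raw read counts per gene symbol and a table of CPM for 12457 genes, which lacks Ddit4.

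Whole-number counts went into edgeR 4.0.16 under R 4.3.3 (quasi-likelihood test, filterByExpr with a minimum count of 10 and a minimum total of 15, TMM scaling, group as the only term, all 8 libraries in 1 fit). Wild type was subtracted from the mean of the knockout lines and from each line alone, and Mx1-Cre from Vav-Cre. The Benjamini-Hochberg adjustment ran over 14086 genes. The SE was taken from the log2 fold change and the F statistic. Group levels are given as the mean ± SD of TMM-scaled CPM. The reads carry no molecular identifiers. The test was tested on simulated data in which both lines changed alike, so recovery of a difference between the lines was not examined.

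The 32 genes, their roles and the other lists were chosen with earlier results of these data known. Values of every library are given for targets called, not overlapping wild type, or with an unadjusted p under 0.01; of the other lists, Trp53, Cdkn1a, Huwe1 and called genes are named, apart from some that are not reported here. Kit and Cd48 were added to check the sort, Tctex1d4 for its overlap with Plk3, and Trp63, Trp73, Hba-a1 and Hbb-b1 as genes without counts. Alternatives were DESeq2 1.42.0, limma 3.58.1 (voom with quality weights, or trend on the deposited CPM as log2(CPM + 1), 31 targets), other scalings and filters, fits restricted to the compared groups, a replicate block, and each library left out in turn. Promoter windows came from RefSeq (GRCm38.p6) and were matched by symbol, with 24 of 32 targets found; build mm9 of the counts was not mixed with these coordinates.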

Additional observations from a re-analysis of the deposited data

How the results depend on the processing

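No result changed direction past the threshold under any alternative. With both lines averaged, 3 targets were called higher, against 5 with limma-voom and 1 to 3 with a library left out; 1 was called lower, against 3 with DESeq2, 2 with limma-voom, 0 with the replicate block and 0 to 1 with a library left out. For Mx1-Cre, 2 were called higher, against 5 with DESeq2, 6 with limma-voom, 4 in the fit of only the groups compared and 1 to 4 with a library left out. For Mx1-Cre, 1 was called lower, against 2 with DESeq2, 2 with limma-voom and 0 to 1 with a library left out. For Vav-Cre, 1 was called higher, against 3 with DESeq2, 2 without a filter, 2 with limma-voom and 0 to 2 with a library left out. Between the lines, 0 were called lower, against 1 with DESeq2 and 0 to 1 with a library left out. Counts over all tested genes moved with the settings too. With both lines averaged, 77 genes were called higher, against 293 with DESeq2, 302 with limma-voom, 112 without a filter and 30 with the replicate block. In the same comparison 296 were called lower, against 660, 690, 388 and 188 in those settings. With a wild type or Mx1-Cre library left out, 4 to 115 were called higher and 18 to 387 lower. For Mx1-Cre, 55 were called higher, against 305 with DESeq2 and 687 with limma-voom, and 296 lower, against 737 and 1128. For Vav-Cre, 27 were called higher, against 229 with DESeq2, 79 without a filter and 40 with limma-voom. Between the lines, 8 of all tested genes were called lower, against 217 with DESeq2. The cause of these changes was not tested. The median log2 fold change with a library left out was 0.054 to 0.165 with both lines averaged, 0.064 to 0.232 for Mx1-Cre, -0.021 to 0.160 for Vav-Cre and -0.13 to 0.13 between the lines. The Mx1-Cre median of 0.20 was 0.12 with library totals as scaling and 0.10 with limma-trend. The labels do not say whether the replicate numbers pair the libraries. Same-numbered libraries correlated at -0.07 to 0.13 in their deviations from group means, and differently numbered ones at -0.18 to 0.16. With 2 or 3 libraries in a group, these correlations cannot decide whether libraries were paired. With the number as a replicate block, 2 targets were called higher and 0 lower with both lines averaged: Trp53inp1 (adjusted p = 0.0713) and Ephx1 (0.0586) were no longer called. The 22 targets outside those given by library were called in 0 of 1460 fits of a target under an alternative. Fits of only the groups compared do not exist for both lines averaged, which uses all groups. With 2 Vav-Cre libraries, leaving 1 out leaves 1, which is then assumed to vary like the other groups. At these depths the low counts of Pmaip1 and Ddit4 leave their differences undetermined.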

Other observations

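Among the stem cell markers, Procr, which encodes the endothelial protein C receptor, fell in Mx1-Cre libraries, to 36.9 ± 3.75 CPM against 63.7 ± 6.24 in wild type libraries (log2 -0.79 ± 0.15, adjusted p = 0.0272, edgeR), and averaged 67.0 ± 9.45 CPM in Vav-Cre libraries. Slamf1, the gene of the sorted antigen CD150, differed between the lines, at 106.2 ± 2.25 CPM in Vav-Cre libraries against 53.6 ± 4.51 in Mx1-Cre libraries (log2 0.99 ± 0.14, adjusted p = 0.0346). Of 24 immediate early genes 21 were tested, and 1 was called with both lines averaged, the transcription factor gene Klf4, which fell by 1.60 on the log2 scale (SE 0.33, adjusted p = 0.0339). In that comparison 2.10% of all tested genes were called lower. By edgeR Klf4 was not called for Mx1-Cre (log2 -1.32 ± 0.38, adjusted p = 0.104) or for Vav-Cre (log2 -1.88 ± 0.45, adjusted p = 0.101).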
